A study of Mus musculus with 6 samples.

Results

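Molecular chaperones of the cytosol and the mitochondria were followed in RAW264.7, a macrophage line of mouse origin, after exposure to titanium (Ti) particles. The set held 45 genes, listed by family, of the 55536 genes annotated in the files: 7 of the HSP70 family, 3 of the HSP110 family, 3 of the HSP90 family, 9 J-domain genes, 2 small heat shock proteins, the 2 subunits of the mitochondrial chaperonin, 5 BAG genes, 2 heat shock factors, 4 further cochaperones of HSP70 and HSP90, and the 8 subunits of the chaperonin CCT. Total RNA was sequenced in 6 libraries, 3 for the PBS control (a buffered salt solution) and 3 for Ti particles, the kind of debris that implants shed. Both groups were cultures of the same line with no other allele or agent named, which the labels place on a C57BL/6 background although the line is generally described as BALB/c-derived. The sources used here give neither the particle dose nor the exposure time. Nor do they call the replicates separate cultures. The p-values then reflect only how far these libraries differ among themselves, and that spread may be technical.

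Chaperones bind unfolded or partly folded proteins and help them reach or keep their working shape. HSP70 proteins hold short exposed stretches in a cycle driven by ATP, which J-domain proteins start. Many BAG proteins and the HSP110 proteins reset this cycle by nucleotide exchange. HSP90 finishes many kinases and receptors with the help of cochaperones, and CCT encloses actin and tubulin. When unfolded protein accumulates, the transcription factor HSF1 is released and binds heat shock elements, inverted repeats of the unit GAA, in the promoters of the inducible members.

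The promoters with matches to such elements are shown first, as background. Whether the inducible members moved together cannot be read from them. A search for an unbroken element of 3 units, GAANNTTCNNGAA or its reverse complement TTCNNGAANNTTC, was made in RefSeq promoters of GRCm38.p6, each 250 bases before to 50 after a start site. Of the 45 genes 37 had an entry, with 49 promoters between them. Hspa8, Hspa9, Hspa13, Hsp90aa1, Hsp90ab1, Hsf1, St13 and Cct4 had no entry and were not searched. A match was found in 5 genes: Chordc1, Dnajb6, Hspd1, Hspe1 and Hsph1. They account for 7 of the 49 promoters (14.3%), against 0.603% of all 32851 promoters in the table. The 7 are not separate sites, since Dnajb6 and Hsph1 each count with 2 overlapping promoters and Hspd1 and Hspe1 share their element. The shorter 2-unit forms GAANNTTC and TTCNNGAA, which overlap the longer ones, were in 36.7% and 15.1%. A match is a description of letters and not of a bound site. Matches are in capitals below, and each line runs 5′ to 3′ on the strand of the gene.
Hspe1, chr1:55088035-55088100, plus strand: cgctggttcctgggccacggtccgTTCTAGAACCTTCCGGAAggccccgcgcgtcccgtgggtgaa
Hspd1, the same bases on the minus strand: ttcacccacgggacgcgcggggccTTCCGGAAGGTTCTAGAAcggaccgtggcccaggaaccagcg
Dnajb6, chr5:29735828-29735888, plus strand: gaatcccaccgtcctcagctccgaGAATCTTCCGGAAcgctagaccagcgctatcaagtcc
Chordc1, chr9:18292263-18292285, plus strand: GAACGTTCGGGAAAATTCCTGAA
Hsph1, chr5:149636288-149636300, minus strand: TTCTGGAAAGTTC
Hspa1b, chr17:34959311-34959366, minus strand: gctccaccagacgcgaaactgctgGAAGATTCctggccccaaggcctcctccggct
Hspa1a, chr17:34972229-34972284, minus strand: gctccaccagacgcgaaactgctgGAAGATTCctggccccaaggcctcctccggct

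The Hspd1 and Hspe1 lines are one element of 2 overlapping matches, read from the 2 sides of a shared promoter between head-to-head genes. One of the RefSeq start sites of Hspd1 lies 216 bases from that of Hspe1. The other lies beyond the Hspe1 start, at -95 on the same scale, and its promoter held no match of either form. The Chordc1 match spans the start site and the Hsph1 match lies after it, so only the matched letters are printed there. Hspa1a and Hspa1b are shown although they hold only a 2-unit match in this window. Their 2 windows are letter for letter the same, and 247 of the 250 bases before the 2 start sites were identical.

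Read depth is described by rescaled estimated counts, the deposited value of each transcript multiplied by exon length over genomic span. They summed to 37686020 to 60242937 per library. CPM here is a gene's rescaled count per 1000000, over library totals scaled by the TMM method. A rescaled count of 3, taken as the floor for counting error only, stood for 0.0498 to 0.0796 unscaled CPM. All 10 macrophage markers were detected in every library, and they summed to 5685 to 7586 CPM in control and 7014 to 8894 CPM with Ti. Lyz2 gave most of that sum, and Csf1r (144 to 1597 CPM) and Itgam (11.9 to 112 CPM) varied widely over the 6 libraries, with overlapping groups. The markers of fibroblasts (5), epithelium (4), endothelium (4) and lymphocytes (5) stayed at a summed 0.873 CPM or less for each cell type in every library.

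The chaperone transcriptome as a whole was similar in the 2 groups. Summed over the 45 genes it came to 13300, 12775 and 12041 CPM in control replicates 1, 2 and 3 and to 13709, 14856 and 12484 CPM in Ti replicates 1, 2 and 3, so the groups overlapped. In bulk samples fewer cells of a kind and less RNA per cell cannot be told apart. Of the 45 genes 42 had enough counts to be tested. Hspb1, Hspb8 and Dnaja4 did not.

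Gene by gene, 0 of the 42 passed an adjusted p of 0.05 in edgeR's quasi-likelihood test with Benjamini-Hochberg adjustment over all 15376 genes tested, where 0.026% of genes passed. The lowest adjusted p of a chaperone was 0.458, for Hspa1b. DESeq2 called 1 of them, again Hspa1b (adjusted p = 0.0111), and limma voom with quality weights called 0. Over all genes DESeq2 also called many more than edgeR did, as counted in the closing section. At an unadjusted p under 0.05 in edgeR, 2 of the 42 were higher with Ti, Hspa13 and Hsp90aa1, which is 4.76% against 3.42% of all genes tested. Another 2 were lower, Hspa1b and Dnaja3, again 4.76%, against 3.34% of all genes. These shares lie near the background.

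Separation of the libraries was counted next. In 3 of the 42 genes every Ti library lay above every control library (Hspa13, Hsp90aa1 and Cct3), 7.14% against 6.63% of all genes tested. In 5 genes every Ti library lay below every control library (Hspa1a, Hspa1b, Trap1, Dnaja3 and Cct4), 11.9% against 6.71%. Hspa1a and Hspa1b among these are near copies and not independent. Positive log2 fold changes were found in 25 of 42 genes, 59.5% against 50.9% of all genes, with a median of 0.04 against 0.01. A log2 fold change beyond 0.5 in either direction occurred in 4 of 42 chaperone genes (9.52%) and in 19.8% of all genes tested. Within 0.1 of zero lay 18 of 42 (42.9%), against 29.9%. These shares were not matched for level. A mean of at least 100 CPM was reached by 23 of the 42 but by only 1913 of all 15376 genes tested. Whether chaperones differed less than other genes of their level was not tested.

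**Figure D1:**
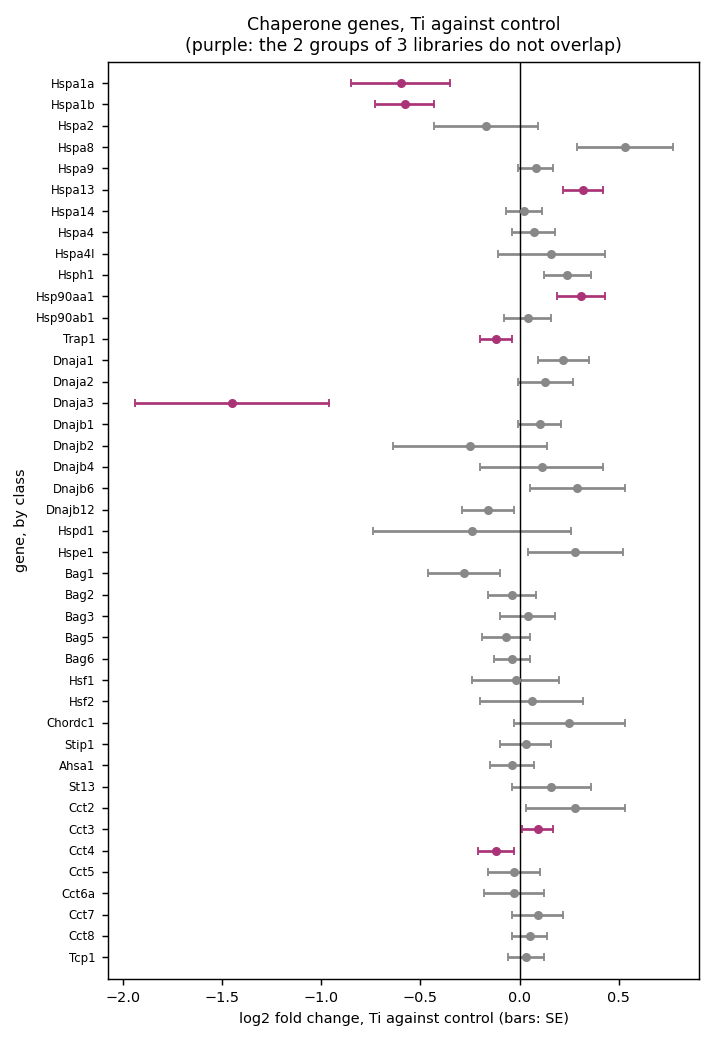
Log2 fold change of each of the 42 tested chaperone genes, Ti against control, with its standard error, in order of class. Purple marks the 8 genes whose 3 Ti and 3 control libraries do not overlap. Most points sit near zero, and Dnaja3, at -1.45, is the farthest from it.

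In the fit without the replicate block, the lowest p of the set belonged to an inducible HSP70, and its difference was downward. Hspa1b (ENSMUSG00000090877, GRCm38 chromosome 17, 34956436 to 34959238, minus strand), a stress-inducible cytosolic HSP70, stood at 9.98, 11.1 and 9.75 CPM in the control libraries and at 7.23, 6.69 and 6.73 CPM in the Ti libraries. Each Ti library was below each control library. The log2 fold change was -0.58 ± 0.15 (SE, n = 3 per group, edgeR unadjusted p = 0.00849, adjusted p = 0.458), a ratio of 0.67. It lay between -0.61 and -0.51 over the 15 alternative settings.

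Hspa1a, its neighbour on chromosome 17 and the other stress-inducible HSP70, stood at 2.19, 1.89 and 1.46 CPM in control and at 1.26, 1.23 and 1.16 CPM with Ti. The groups again did not overlap, with a log2 fold change of -0.60 ± 0.25 (edgeR unadjusted p = 0.0529, adjusted p = 0.739). The 2 genes are near copies: 47.1% of all 100-base windows of the Hspa1a transcript recur exactly in that of Hspa1b, and 49.9% the other way. How reads were divided between them is not given in the sources used here, so they are not independent observations. Their sum was 12.2, 13.0 and 11.2 CPM in control and 8.49, 7.92 and 7.90 CPM with Ti. Both are scarce transcripts in these cells.

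The constitutive cytosolic HSP70, Hspa8, was far more abundant and pointed the other way. It stood at 897, 930 and 1393 CPM in control and at 1225, 1960 and 1479 CPM with Ti. Control replicate 3 lay above Ti replicate 1, so the groups overlapped, and the log2 fold change of 0.53 ± 0.24 did not pass (edgeR unadjusted p = 0.0693, adjusted p = 0.768). Leaving out Ti replicate 2 gave 0.33, and leaving out control replicate 3 gave 0.77. Transcript CPM is scaled over the transcript table and so differs slightly from gene CPM. The coding transcript Hspa8-201 stood at 568, 696 and 867 CPM in control and at 942, 1337 and 1115 CPM with Ti, with every Ti library above every control library. Its log2 fold change was 0.67 ± 0.20 (edgeR over 41599 transcripts, unadjusted p = 0.0166, adjusted p = 1). The retained-intron transcript Hspa8-207 overlapped between groups, at 284, 210 and 378 CPM against 225, 481 and 275 CPM.

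Hspa13, an HSP70 of the microsomal membrane, stood at 69.4, 70.1 and 78.3 CPM in control and at 84.8, 93.5 and 93.7 CPM with Ti. The groups did not overlap, and the log2 fold change was 0.32 ± 0.10 (edgeR unadjusted p = 0.0188, adjusted p = 0.597). Hspa9, the mitochondrial HSP70, had 920, 884 and 786 CPM in control and 940, 931 and 870 CPM with Ti. Its groups overlapped, at 0.08 ± 0.09 on the log2 scale. Hspa14, a ribosome-associated HSP70, was among the steadiest genes of the set, between 76.2 and 85.2 CPM in all 6 libraries. Hspa2, best known from the testis, was low, at 1.2 to 1.86 CPM with overlapping groups.

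The HSP110 genes encode large relatives of HSP70 that act as its exchange factors. Hsph1, the heat-inducible one, stood at 280, 273 and 237 CPM in control and at 332, 331 and 274 CPM with Ti. The lowest Ti library fell between the control libraries, and the log2 fold change was 0.24 ± 0.12 (edgeR unadjusted p = 0.0833, adjusted p = 0.796). Hspa4 was at 626, 628 and 539 CPM against 641, 677 and 569 CPM, or 0.07 ± 0.11 on the log2 scale. Hspa4l was low, at 13.3 to 23.2 CPM, with overlapping groups.

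Of the cytosolic HSP90 pair, the inducible gene Hsp90aa1 was higher in each Ti library than in any control library. It stood at 715, 879 and 793 CPM in control and at 927, 1098 and 933 CPM with Ti, and the log2 fold change was 0.31 ± 0.12 (edgeR unadjusted p = 0.0393, adjusted p = 0.707). The means were 796 ± 81.8 and 986 ± 97.0 CPM (SD, n = 3 per group), a ratio of 1.24. The constitutive partner Hsp90ab1 had 3050, 2971 and 2348 CPM in control and 3036, 2820 and 2751 CPM with Ti. Its groups overlapped, at 0.04 ± 0.12 on the log2 scale, and the sign turned without control replicate 3 (-0.07). Trap1, the mitochondrial HSP90, stood at 165, 153 and 158 CPM in control and at 144, 149 and 146 CPM with Ti. Its groups did not overlap, but the difference was small, -0.12 ± 0.08 (edgeR unadjusted p = 0.198, adjusted p = 0.876).

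Which Hsp90aa1 transcript carried the signal differed in 1 library. Hsp90aa1-202 held 98.4% to 99.3% of the gene's rescaled counts in 5 libraries and 76.7% in Ti replicate 3. There the coding transcript Hsp90aa1-201 stood at 205 CPM, against 0.693 to 3.72 CPM in the other libraries. The sum of the gene in Ti replicate 3, 933 CPM, was close to that of Ti replicate 1. Hsp90aa1-202 alone overlapped between groups, at 720, 898 and 762 CPM in control and at 918, 1097 and 700 CPM with Ti. The separation of the gene therefore rests on adding both transcripts.

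**Figure D2:**
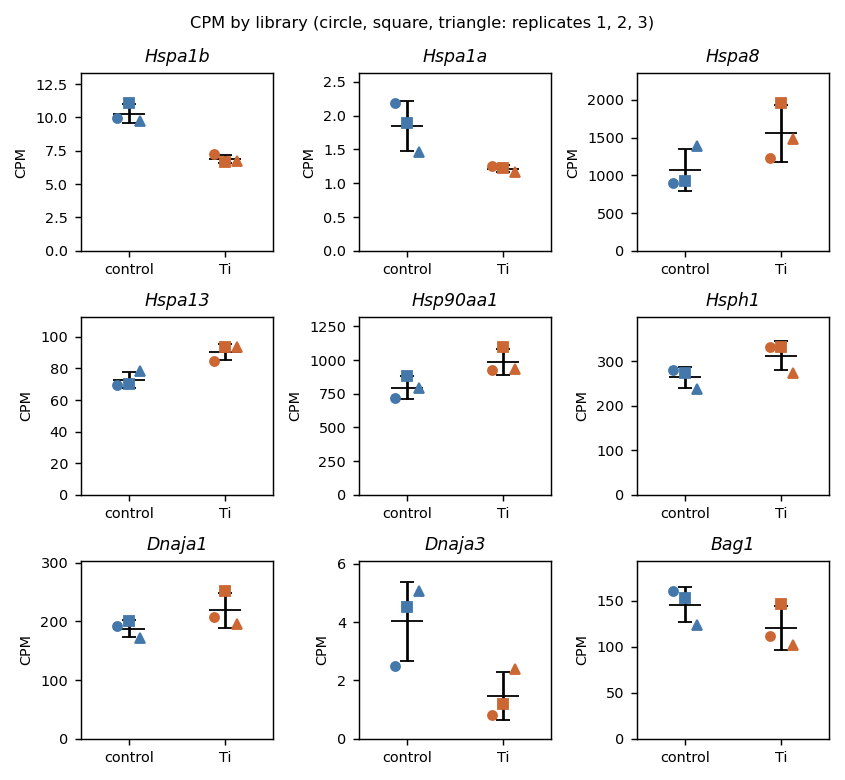
CPM of 9 chaperone genes in each library, control in blue and Ti in orange, with the mean and SD of 3 libraries, and with replicates 1, 2 and 3 as circle, square and triangle. Hspa1b, Hspa1a, Hspa13, Hsp90aa1 and Dnaja3 have groups that do not overlap, and Hspa8, Hsph1, Dnaja1 and Bag1 have groups that do.

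J-domain proteins deliver clients to HSP70 and start its ATP cycle. Of the 9 genes 8 were tested, 5 with positive and 3 with negative fold changes. Dnaja1, a main cytosolic partner of HSP70, stood at 192, 200 and 171 CPM in control and at 208, 252 and 196 CPM with Ti, with 1 overlapping pair of libraries (0.22 ± 0.13 on the log2 scale, edgeR unadjusted p = 0.136, adjusted p = 0.835). Of its rescaled counts 75.6% to 80.4% belonged to Dnaja1-204, annotated as a processed transcript without a coding frame, and 19.9% in control and 19.5% with Ti to coding transcripts. Its close relative Dnaja2 had 0.13 ± 0.14, with overlapping groups. Dnajb1, the classical heat-inducible J protein, hardly differed, at 59.2, 57.4 and 50.4 CPM against 61.0, 63.2 and 55.4 CPM, or 0.10 ± 0.11 on the log2 scale.

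Dnaja3, a J protein of mitochondria, had the largest fold change of the set, but at a low level. It stood at 2.5, 4.53 and 5.08 CPM in control and at 0.815, 1.18 and 2.41 CPM with Ti, or 0.365 of the control. The groups did not overlap, although control replicate 1 and Ti replicate 3 came close to each other. The log2 fold change was -1.45 ± 0.49 (edgeR unadjusted p = 0.0248, adjusted p = 0.635), and it ranged from -2.01 to -1.16 over fits without 1 library. Most of it was the retained-intron transcript Dnaja3-203, which made up 92.6% to 99.9% of the gene in control but 74.3% to 94.8% with Ti. The coding transcripts of Dnaja3 together reached at most 0.269 CPM in any library, so these values say little about its protein-coding RNA.

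The other J-domain genes were at lower or steady levels. Dnajb6, which keeps aggregation-prone proteins soluble and whose promoter is printed above, had a control mean of 18 ± 4.31 CPM and a Ti mean of 22 ± 4.16 CPM (SD, n = 3 per group), with overlapping groups. Coding transcripts held 38.1% and 50% of it. Dnajb12, a membrane-anchored J protein, averaged 48.3 ± 3.48 and 43.1 ± 5.18 CPM, also overlapping. Dnajb2 and Dnajb4 ranged from 1.85 to 5.32 and from 11.1 to 23.7 CPM over the 6 libraries. Dnaja4 was at 10, 0 and 6 rescaled counts in control and at 12, 2 and 0 with Ti, too few to test.

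The genes of the small heat shock proteins, which hold unfolded protein without ATP, were near zero over their annotated transcripts. Transcripts assembled outside the annotation were not counted. Hspb1 had 2 rescaled counts in Ti replicate 2 and 0 in each of the other 5 libraries. Hspb8, the partner of the autophagy adaptor Bag3, had 2 in the library numbered 3 of each group and 0 in the other 4. These values lie under the floor of 3 counts in every library, and a difference could not be detected at such depth, so no fold is given.

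The mitochondrial chaperonin is built from Hspd1 (HSP60) and its lid Hspe1 (HSP10), whose promoter windows share the element printed above. Their levels did not run in parallel. Hspd1 stood at 1177, 358 and 658 CPM in control and at 748, 776 and 332 CPM with Ti, a range of 3.54-fold over the 6 libraries, with extremes in both groups. Hspe1 stood at 146, 144 and 98.1 CPM in control and at 139, 206 and 126 CPM with Ti. The ratio of Hspd1 to Hspe1 in CPM was 8.08, 2.49 and 6.71 in control and 5.38, 3.77 and 2.63 with Ti. Neither gene passed: Hspd1 had -0.24 ± 0.50 and Hspe1 0.28 ± 0.24 on the log2 scale (edgeR adjusted p = 0.977 and 0.923). The sign for Hspd1 turned without control replicate 1 (0.28) or Ti replicate 3 (0.06), and Hspe1 came to 0.04 without Ti replicate 2. One transcript, Hspd1-201, held at least 99.0% of the gene in each library, so the spread is not a shift between annotated transcripts. Reads given to transcripts assembled outside the annotation were not counted, and their part in the spread was not tested.

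**Figure D3:**
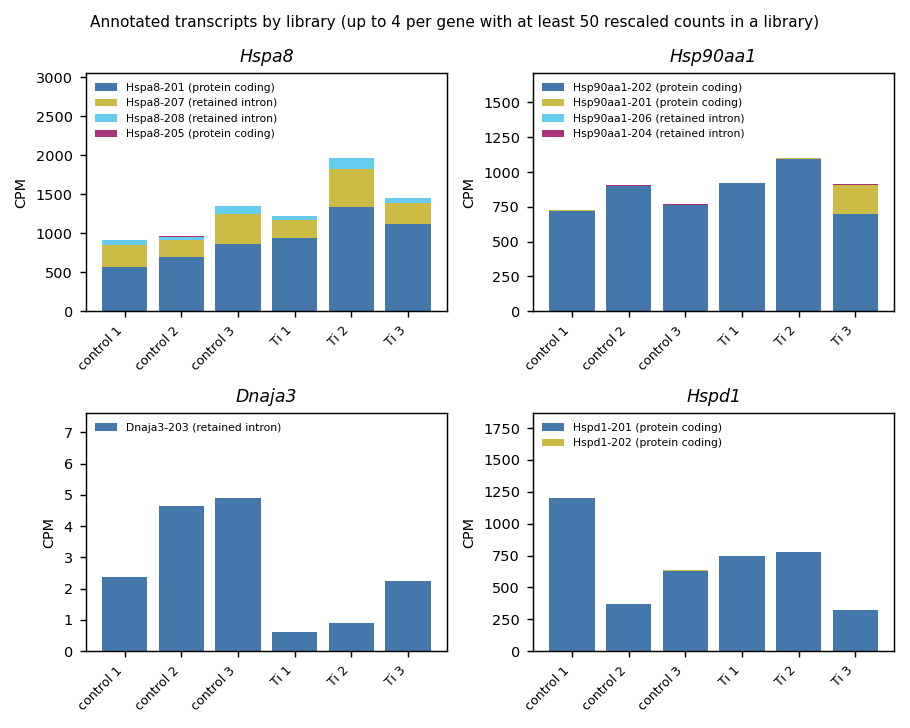
CPM of the annotated transcripts of Hspa8, Hsp90aa1, Dnaja3 and Hspd1, stacked per library, with up to 4 transcripts of at least 50 rescaled counts in a library. Hsp90aa1-201 reaches 205 CPM in Ti replicate 3, Dnaja3 consists of a retained-intron transcript, and Hspd1 varies in both groups through 1 coding transcript.

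Of 189 tested transcripts of the 45 genes, 0 passed edgeR's adjusted p of 0.05 over all transcripts, where 0.00721% did. Their lowest adjusted p was 0.515. At an unadjusted p under 0.05, 3 were higher with Ti and 3 lower, against 2.25% and 2.05% of all transcripts tested. None of the 6 had both an unadjusted p under 0.01 and a mean of at least 50 rescaled counts in a group, the limit set for naming transcripts. Those described here were chosen after their values were seen.

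Many BAG proteins bind HSP70 through a shared domain and release its nucleotide. Members of the family act with proteasomes, in autophagy or in membrane insertion. Bag1 had the largest difference of the 5. It stood at 161, 153 and 124 CPM in control and at 112, 147 and 102 CPM with Ti, with overlapping groups and a log2 fold change of -0.28 ± 0.18 (edgeR unadjusted p = 0.167, adjusted p = 0.857). Bag3, which HSF1 induces and which steers clients to autophagy, was at 90.9, 84.8 and 72.4 CPM against 94.4, 86.3 and 75.1 CPM, or 0.04 ± 0.14 on the log2 scale. Bag5 stood at 44.4, 42.9 and 41.0 CPM in control and at 43.5, 42.4 and 36.2 CPM with Ti, and its groups overlapped. Bag2 and Bag6 also overlapped, with log2 fold changes of -0.04 each.

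The heat shock factors were low to moderate. Hsf1, the main regulator of inducible chaperones, stood at 47.2, 32.2 and 32.9 CPM in control and at 38.1, 29.5 and 43.0 CPM with Ti, or -0.02 ± 0.22 on the log2 scale. Hsf2 stood at 18.1, 10.5 and 17.4 CPM in control and at 19.4, 15 and 13.4 CPM with Ti, at 0.06 ± 0.26. Both overlapped between groups. HSF1 is controlled largely at the protein level, which these data do not measure.

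The further cochaperones are Stip1 (HOP), which passes clients from HSP70 to HSP90, Ahsa1, which speeds the ATPase of HSP90, St13 (HIP), which steadies HSP70, and Chordc1, an HSP90 partner. Stip1 was at 374, 362 and 298 CPM in control and at 367, 381 and 306 CPM with Ti, with overlapping groups. Chordc1 stood at 32.7, 54.0 and 64.6 CPM in control and at 59.4, 71.3 and 49.5 CPM with Ti. Its groups overlapped, at 0.25 ± 0.28 on the log2 scale, and without control replicate 1 the value was 0.02. St13 had 227, 322 and 226 CPM against 348, 263 and 254 CPM, and Ahsa1 had 175, 167 and 153 CPM against 170, 167 and 143 CPM. All 4 genes overlapped between groups.

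The chaperonin CCT folds actin and tubulin in a double ring with 1 copy of each subunit per ring. Its 8 subunit genes summed to 3166, 3317 and 3077 CPM in control and to 3280, 3633 and 3004 CPM with Ti, with overlapping groups. The median log2 fold change of the 8 was 0.04, and 6 of them lay within 0.1 of zero. Cct4 was at 322, 316 and 355 CPM in control and at 293, 308 and 313 CPM with Ti. These groups did not overlap, at -0.12 ± 0.09 (edgeR unadjusted p = 0.213, adjusted p = 0.884). Cct3 did not overlap either, at 554, 554 and 501 CPM against 561, 592 and 557 CPM, with 0.09 ± 0.08. Coding transcripts held 74.6% of Cct3 in control and 72.8% with Ti. Summed alone they overlapped between groups, at 419, 461 and 337 CPM in control and 393, 461 and 389 CPM with Ti. Cct2 varied most, at 253, 395 and 342 CPM against 441, 481 and 278 CPM. Its log2 fold change was 0.28 ± 0.25, and 0.12 after removal of either control replicate 1 or Ti replicate 2. Cct5 had overlapping groups, at 547, 530 and 448 CPM against 496, 560 and 434 CPM. Cct7, Cct8 and Tcp1 had log2 fold changes of 0.09, 0.05 and 0.03.

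Cct6a needs a caution. GENCODE vM21 gives this gene no protein-coding transcript, and its long transcripts Cct6a-201 and Cct6a-202 were listed at 0 in every library. The 41.9 to 56.4 CPM counted for it came nearly all from the short retained-intron transcripts Cct6a-205 and Cct6a-207. Its level is therefore not comparable with those of the other subunits.

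Per length of exon, the levels spanned more than the differences between groups. Hsp90ab1 was the most abundant, at 1131 ± 154 CPM per kb in control and 1164 ± 58.3 CPM per kb with Ti (SD, n = 3 per group). Hspa8 followed, at 575 ± 151 and 795 ± 213 CPM per kb. The next, Hspa9, Hspd1, Cct5 and Hsp90aa1, averaged 303, 281, 281 and 281 CPM per kb over the 6 libraries and cannot be ordered within their spread. Leaving out Cct6a, the CCT genes lay between 144 CPM per kb for Cct4 and that value for Cct5. The inducible HSP70 genes were near the bottom, with Hspa1b at 3.66 ± 0.255 and 2.46 ± 0.106 CPM per kb and Hspa1a at 0.623 ± 0.123 and 0.411 ± 0.0174 CPM per kb.

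**Figure D4:**
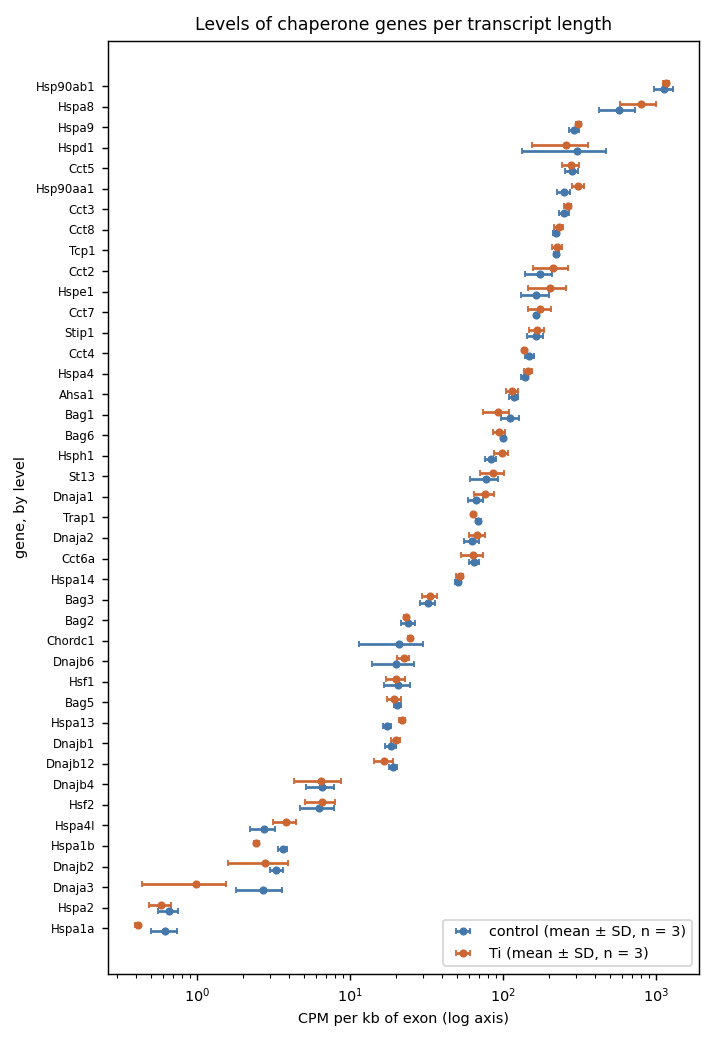
Level of each tested chaperone gene in CPM per kb of exon on a log axis, mean and SD of 3 libraries, control in blue and Ti in orange. Hsp90ab1, at 1131 CPM per kb in control, is at the top and Hspa1a, at 0.623 CPM per kb, at the bottom.

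Many of the genes were low in the libraries numbered 3. In 20 of the 42 tested genes the library numbered 3 was the lowest of its group in both control and Ti, 47.6% against 19.6% of all genes tested. Among genes with a mean of at least 100 CPM it was 16 of 23 chaperone genes (69.6%) and 33.0% of 1913 genes. The 20 include Hspa9, Hspa4, Hsph1, Hsp90ab1, Dnaja1, Dnajb1, Hspe1, Bag3, Stip1, Ahsa1, Cct5 and Tcp1. Without TMM scaling the count was also 20. These are descriptions, since genes within a library are not independent. The labels do not say what a replicate number shares, and the part of cell state, RNA quality or library preparation was not tested.

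**Figure D5:**
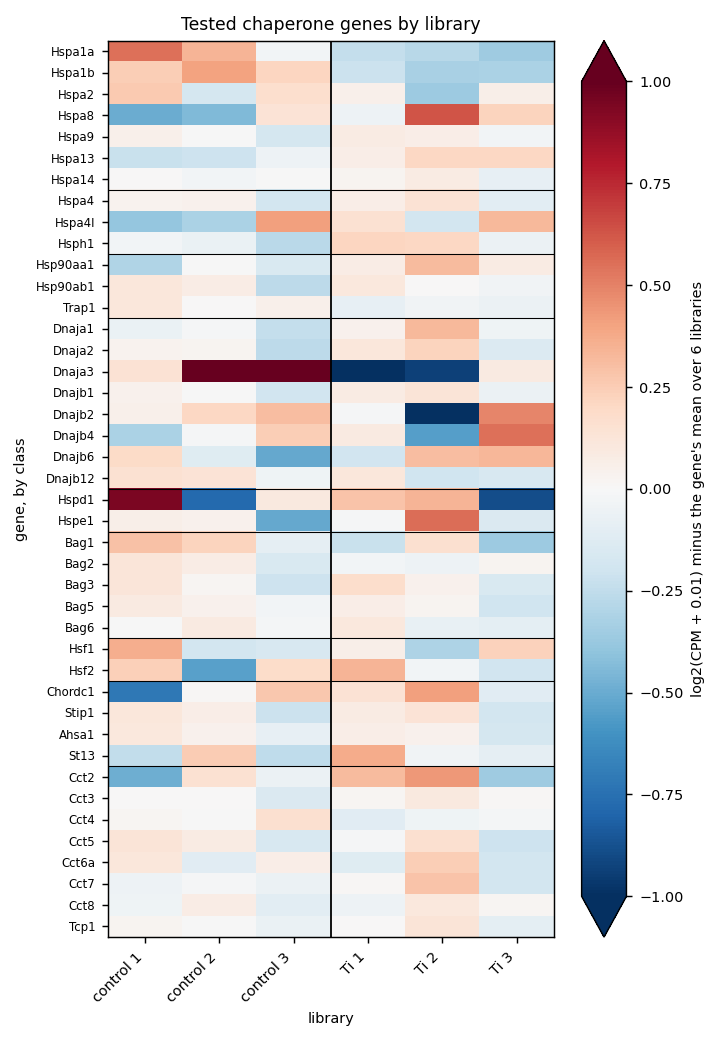
Each tested chaperone gene in each library, as log2(CPM + 0.01) minus the gene's mean over the 6 libraries, with classes separated by lines and colours saturating at -1 and 1. The columns of control replicate 3 and Ti replicate 3 are each blue, below the gene's own mean, in 29 of 42 genes.

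Because the deviations of same-numbered libraries were weakly correlated, the test was repeated with the replicate number as a block. Then 4 of the 42 genes were higher at an unadjusted p under 0.05, namely Hspa13 (0.0156), Hsp90aa1 (0.00826), Hsph1 (0.0156) and Dnaja1 (0.0491), 9.52% against 5.04% of all genes tested. There were 2 lower, Hspa1b (0.0164) and Dnaja3 (0.00458), 4.76% against 4.32%. With adjustment over all genes 0 passed in edgeR with the block, and the lowest adjusted p was 0.387.

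The heat-inducible members, 17 genes listed from textbook knowledge of HSF1 targets, had fold changes of both signs. Of 16 tested, 12 had positive and 4 negative fold changes, with a median log2 fold change of 0.11. The 26 other tested genes had 13 and 13. Over all genes tested 50.9% of the fold changes were positive, with a median of 0.01. The list was made with earlier results of these data known, so these counts are descriptions only. The 5 genes with a 3-unit element in the printed promoters, Chordc1, Dnajb6, Hspd1, Hspe1 and Hsph1, had 0.25, 0.29, -0.24, 0.28 and 0.24 on the log2 scale, and in edgeR without the replicate block 0 of them had an unadjusted p under 0.05. With the block Hsph1 did, as given above. Without Ti replicate 2 the value for Hspe1 was 0.04.

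Other folding genes, listed by role, also gave no call after adjustment. The 3 that were higher at an unadjusted p under 0.05 were all chaperones of the endoplasmic reticulum, given below. Over 78 tested genes of 86 listed, 0 passed edgeR's adjusted p of 0.05, while 3 were higher and 1 lower at an unadjusted p under 0.05, where 3.42% and 3.34% of all genes tested were. Of the 6 prefoldin genes, which hand actin and tubulin to CCT, 5 had positive fold changes, with a median of 0.12, and Pfdn5 had 0.56 ± 0.52 and Pfdn6 -0.11 ± 0.11. The 13 other HSP90 cochaperones had a median of 0.09, with Ppid, a prolyl isomerase, at 0.21 ± 0.10 and Unc45a, a myosin chaperone, at 1.02 ± 0.48. Unc45a was low, at 7.5 ± 3.45 CPM in control and 15.2 ± 7.39 CPM with Ti (SD, n = 3 per group). Its groups overlapped, and without Ti replicate 2 its log2 fold change was 0.59. The 21 other J-domain genes tested had a median of 0.08, with Dnajc21 at 0.25 ± 0.13 and Dnajc13 at 0.27 ± 0.15. Of 11 tested genes among HSP70 partners and further small heat shock proteins 10 had negative fold changes, with a median of -0.15, among them Sil1 at -0.15 ± 0.11 and Hsbp1 at -0.13 ± 0.12.

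In the mitochondria, 12 genes for further folding factors and proteases had a median log2 fold change of 0.01. Hscb, a J protein of iron-sulfur cluster assembly, stood at 8.75 ± 2.13 CPM in control and 5.72 ± 0.691 CPM with Ti (SD, n = 3 per group), at -0.61 ± 0.24 (edgeR unadjusted p = 0.0404, adjusted p = 0.716). Lonp1, the matrix protease, had -0.83 ± 0.39, and -0.32 without control replicate 3. Coding transcripts held only 0.0403% of Lonp1 in control and 27.3% with Ti. The endoplasmic reticulum, outside the set, had 13 of 15 chaperone genes with positive fold changes and a median of 0.14. In 6 of these 15 every Ti library lay above every control library: Hspa5, Hsp90b1, Dnajb9, Dnajc3, Pdia4 and Creld2. Over all genes tested 6.63% were separated in that direction. At an edgeR unadjusted p under 0.05, 3 of the 15 were higher, Dnajb9, Pdia4 and Creld2, where 3.42% of all genes tested were. None of the 15 passed the adjusted p, and the difference between this compartment and the cytosol was not tested.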

How the data were processed

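The authors deposited an estimated count for every transcript in each library, as whole numbers. The submitters' processing notes name HISAT2, StringTie and mm9, without versions. What produced the counts is not stated in the sources. The 141862 Ensembl rows match GENCODE vM21, so names and coordinates are on GRCm38. The 45489 assembled rows, 36.9% to 51.2% of the deposited totals, were not used. Values grew with genomic span (slope on log scales 0.911 to 0.941 for coding transcripts), so each was multiplied by exon length over span, which left 0.273 to 0.306, and summed per gene. Results were rounded to whole numbers. The correction is approximate.

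Genes and, separately, transcripts were fitted in edgeR 4.0.16 (R 4.3.3) by the quasi-likelihood method with TMM scaling and filterByExpr on all 6 libraries, with Benjamini-Hochberg adjustment over everything tested. A standard error is the size of the log2 fold change over the square root of F. Alternatives were DESeq2 1.42.0, DESeq2's size factors, limma 3.58.1 voom with quality weights, other filters, a replicate block, unrescaled values, removal of on/off transcripts (at most 3 rescaled counts in each library of one group, at least 30 in each of the other) and leaving out each library. Leaving out replicate 3 of both groups was added after seeing the data. Tables used pandas 2.3.3 under Python 3.11.15, and figures matplotlib 3.10.9. The scripts were first tested on simulated data.

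Whether replicate numbers pair the samples was checked by the correlation of deviations across genes. Same-numbered libraries gave 0.11, 0.144 and 0.266 and other pairs -0.17 to 0.0402. The same-numbered pairs were the highest, but the correlations are weak and 3 libraries per group are few. Whether the numbers pair the samples is therefore not settled, and the labels do not say. Values are from the fit without the block unless the block is named, and the fit with it is given where it changed a count of calls. Within each group, libraries differed by more than sampling noise if the rescaled values are taken as read counts. Since their true scale is not known, that comparison is rough.

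The members and lists were chosen with earlier results of these data known. Values in every library are given for members with an unadjusted p under 0.05, the 2 of each class with the smallest p and the most abundant of each class per length. Hspa1a, Hspa9, Dnajb1, Bag3, Ahsa1, Cct3 and the transcripts described were added after their values were seen. From other lists, up to 2 genes with the smallest p are named, and the separated genes of the endoplasmic reticulum were added.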

Additional observations from a re-analysis of the deposited data

How the results depend on the processing

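Over all genes, 2 higher and 2 lower passed. DESeq2 gave 163 and 129, voom 5 and 5, the replicate block 0 and 0, removal of on/off transcripts 0 and 1, no filter on low counts 1 lower, and removal of replicate 3 of both groups, an alternative chosen after seeing the data, 0 and 0. Removal of single libraries gave 1 to 8 higher and 0 to 7 lower. Over all transcripts, 2 higher and 1 lower passed. DESeq2 gave 218 and 186 and unrescaled values 7 and 2. DESeq2's size factors, a mean of at least 50 counts, no filter, the replicate block, voom and removal of replicate 3 of both groups each gave 0 and 0. Leaving out 1 library gave 0 higher and 0 to 1 lower. Of the chaperones 0 passed except with DESeq2, which called 1, Hspa1b at -0.57. The cause of these changes was not tested.

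The sign of the log2 fold change reversed under at least 1 of 15 alternatives in 17 of the 42 tested chaperones. Removal of single libraries gave -0.02 to 0.07 for Hspa14, -0.07 to 0.11 for Hsp90ab1, -0.62 to 0.07 for Dnajb2, -0.18 to 0.35 for Dnajb4, -0.56 to 0.28 for Hspd1, -0.11 to 0.01 for Bag2, -0.04 to 0.13 for Bag3, -0.12 to 0.0099 for Bag5, -0.14 to 0.18 for Hsf1, -0.15 to 0.19 for Hsf2, -0.06 to 0.12 for Stip1, -0.09 to 0.03 for Ahsa1, -0.0039 to 0.35 for St13, -0.13 to 0.06 for Cct5, -0.18 to 0.06 for Cct6a, -0.04 to 0.20 for Cct7 and -0.03 to 0.08 for Tcp1. Without replicate 3 of both groups Hsp90ab1 and Dnajb4 were at -0.04 and Cct6a at 0.08. Unrescaled values gave -0.10 for Hsf2 and -0.65 for Dnajb4. The other 25, Hspa1b, Hspa8, Hspa13, Hsp90aa1 and Dnaja3 among them, kept their sign in every setting, as did the 16 genes named from other lists. With the replicate block 0 chaperones passed the adjusted p, as without it. Genes of a few CPM, such as Hspa1a and Dnaja3, are also limited by counting error.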
